A study of Mus musculus with 19 samples.

Results

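The comparison described here is that of the lowest dose of a mixture of 8 polycyclic aromatic hydrocarbons with its vehicle, in mouse lung. Its members were found from the array titles: 4 arrays titled D1, from 4 mice given 15 mg benzo[a]pyrene (BaP) equivalents per kg of body weight per day, and 5 arrays titled D0, from 5 mice given the vehicle. These are 9 of the 19 arrays of the series, which came from 18 mice. The remaining arrays are those of the 30 mg (D2) and 60 mg (D3) groups, which entered the fit so that all mice shared 1 estimate of the spread. One array titled D2 is of mouse 23, whose number lies among those of D1, and the number of mice per dose stated in the methods matches the arrays if it is counted in D1. It was kept in D2 as titled, and with it in D1 the count of 328 changed probes given below was 284 (166 higher, 118 lower).

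All mice were adult males, aged about 12 weeks, of MutaMouse, a transgenic strain on a BALB/C-DBA/2 background that is used for mutation assays. Controls therefore carried the transgene too. The mixture, dissolved in olive oil, was given by oral gavage on 28 consecutive days, controls received olive oil alone, and the lung was taken 72 hours after the last dose. RNA of each lung was labelled red (Cy5) and hybridised together with a green (Cy3) reference RNA pooled from mouse cell lines. Each value below is a log2 red over green ratio after loess normalisation, and each difference is the D1 mean minus the D0 mean of such ratios. Dyes were not swapped, so a dye bias stays in each ratio, while one that is equal on all arrays cancels in the difference of D1 and D0. D0 arrays always lay in column 1 and D1 arrays in column 2 of a slide, and the effect of column cannot be told apart from that of dose. The label "lung" was checked against defining markers: the surfactant gene Sftpc had ratios of 7.73 ± 0.40 in D0 (mean ± SD over 5 mice) and 7.36 ± 0.46 in D1 (over 4 mice), and Ager, a marker of alveolar type 1 cells, stood at 6.04 ± 0.36 and 5.58 ± 0.29.

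Polycyclic aromatic hydrocarbons bind the aryl hydrocarbon receptor (AHR), which moves to the nucleus, pairs with ARNT and activates genes of xenobiotic metabolism, among them the cytochromes P450 of the Cyp1 family. These enzymes turn the hydrocarbons into reactive diol epoxides that form DNA adducts, and DNA damage stabilises the transcription factor p53. Targets of p53 include inhibitors of the cell cycle, repair genes and genes of apoptosis.

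The promoters of 5 genes on which the results turn are shown so that sequence and measured change can be read side by side. Each run holds the 250 bases before a RefSeq transcription start (GRCm38.p6), written 5′ to 3′ on the strand of the gene. Capitals mark matches, on either strand, to the core letters of the AHR site (GCGTG) or to the p53 half-site. They also mark CCAAT, the box bound by NF-Y. The core of the cell cycle genes homology region, written TTTGAA, is marked as well. No marked match overlaps another in these runs. Cyp1b1 and Ahrr are shown as AHR targets, Cdkn1a as a p53 target (the upstream one of its 2 starts), and Spc25 and Mki67 as genes of mitosis.
Cyp1b1 (chr17:79715062-79715311, minus strand): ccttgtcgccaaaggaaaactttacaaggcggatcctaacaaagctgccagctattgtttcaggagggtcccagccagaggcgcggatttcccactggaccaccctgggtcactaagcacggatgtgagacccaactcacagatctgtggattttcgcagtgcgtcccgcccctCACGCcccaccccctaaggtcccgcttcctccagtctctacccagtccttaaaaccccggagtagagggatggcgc
Ahrr (chr13:74292332-74292581, minus strand): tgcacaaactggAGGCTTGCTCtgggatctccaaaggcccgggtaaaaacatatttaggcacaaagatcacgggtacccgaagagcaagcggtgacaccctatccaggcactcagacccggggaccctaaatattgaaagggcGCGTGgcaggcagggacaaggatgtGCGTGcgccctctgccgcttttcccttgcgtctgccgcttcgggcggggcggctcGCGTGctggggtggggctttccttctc
Cdkn1a (chr17:29090729-29090978, plus strand): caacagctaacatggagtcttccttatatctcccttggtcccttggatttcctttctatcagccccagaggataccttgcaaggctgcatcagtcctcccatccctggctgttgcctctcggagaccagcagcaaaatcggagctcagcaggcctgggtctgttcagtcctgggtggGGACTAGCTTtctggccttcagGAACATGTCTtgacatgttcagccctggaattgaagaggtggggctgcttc
Spc25 (chr2:69206214-69206463, minus strand): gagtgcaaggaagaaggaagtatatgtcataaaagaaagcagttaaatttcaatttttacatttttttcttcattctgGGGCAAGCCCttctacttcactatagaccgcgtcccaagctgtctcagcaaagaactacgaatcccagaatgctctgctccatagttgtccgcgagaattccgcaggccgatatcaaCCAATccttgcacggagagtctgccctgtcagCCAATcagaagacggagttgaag
Mki67 (chr7:135716380-135716629, minus strand): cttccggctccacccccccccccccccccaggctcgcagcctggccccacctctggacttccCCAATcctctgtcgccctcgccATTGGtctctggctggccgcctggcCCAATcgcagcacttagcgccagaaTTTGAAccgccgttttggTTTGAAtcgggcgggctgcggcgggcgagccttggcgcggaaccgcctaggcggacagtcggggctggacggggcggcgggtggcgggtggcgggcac

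Of 30999 probes tested, 328 (1.06%) passed an adjusted p of 0.05 in limma together with a change of at least 1.5-fold, and these are the probes called here. In D1, 184 probes (0.594%) were higher and 144 (0.465%) were lower. The median size of a called change was 1.64-fold, 48 probes changed by 2-fold or more, and 3 by 4-fold or more. The 5 D0 and 4 D1 values did not overlap in 299 of the 328 probes, against 8.93% of all tested probes. The difference had the same direction on all 3 slides that held both groups in 325 of them, against 45.6% of all tested probes. Calls were made on these same values, so both shares describe the called probes and test nothing. By their brightest probe, 14735 genes with a symbol were tested, of which 129 (0.875%) were higher and 47 (0.319%) lower, with a median difference of 0.03. When each array was only centred on its median, with no loess, 12 probes were called, all of them higher and all among the 328, and the median over all probes moved from 0.01 to 0.17, so changes are given relative to the loess-normalised scale.

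**Figure D1:**
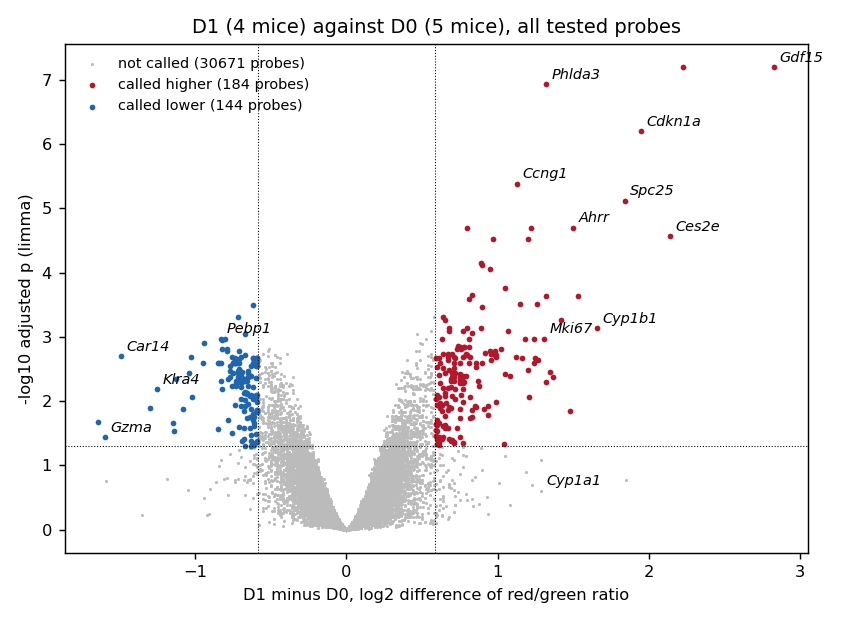
Each point is 1 of 30999 tested probes. The x axis gives the D1 minus D0 difference in log2 ratio and the y axis minus log10 of limma's adjusted p, with dotted lines at the thresholds. The largest increase, Gdf15 at 2.83, lies farther from 0 than any called decrease.

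Targets of p53 held the largest increases. Of 38 tested targets, 11 rose and none fell, against 0.875% higher among all genes with a symbol, and the median over the list was 0.40 beside 0.03 for all genes. This and the other lists were chosen with earlier results of these data known, so such shares describe the lists and test nothing. Ces2e and Ephx1 are also on the list of conjugating and hydrolysing enzymes described below. All 11 calls held in each of the 9 fits that left out 1 mouse, and 17 of the 38 passed the adjusted p without the fold threshold. With arrays centred on their median alone, 5 of the 11 were called, and 10 where signal above background was required in every D0 and D1 mouse.

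Gdf15, a secreted stress cytokine of the TGF-beta superfamily, had ratios of -2.22, -2.02, -2.44, -2.42 and -2.19 in D0 mice 1 to 5, and of 0.16, 0.71, 0.84 and 0.59 in D1 mice 21, 22, 24 and 25. Every D1 value lay more than 2 units above every D0 value. The difference was 2.83 ± 0.18 (SE), or 7.12-fold, with an adjusted p of 6.33e-08 in limma, the largest increase of the comparison. Cdkn1a encodes p21, the cyclin-dependent kinase inhibitor through which p53 halts the cell cycle. Its brighter probe read -1.05, -0.66, -0.97, -0.94 and -0.56 in D0 and 0.72, 1.03, 1.5 and 1.2 in D1, in the same mouse order. The groups were far apart at both of its probes, with differences of 1.95 ± 0.15 (3.86-fold, limma adjusted p = 6.25e-07) and 2.23 ± 0.15 (4.69-fold, 6.33e-08). The Cdkn1a run printed above holds 2 p53 half-sites, which 0.281% of the 27025 genes with a promoter in the table hold, while 8.2% hold at least 1. The run before the second Cdkn1a start (chr17:29093519-29093768), not printed, holds no p53 half-site and 1 GCGTG. A match of letters is a description only.

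Phlda3, a p53 target that restrains Akt, lay between 0.02 and 0.19 in D0 and at 1.27, 1.36, 1.66 and 1.49 in D1. Its D0 spread was among the tightest of the named genes (SD 0.07), and the difference of 1.32 ± 0.09 had an adjusted p of 1.17e-07 in limma. Ccng1, which encodes cyclin G1, read from -1.39 to -0.82 in D0 and 0.00, 0.04, 0.10 and 0.14 in D1, a difference of 1.13 ± 0.10 (adjusted p = 4.16e-06). Trp53inp1, a nuclear partner of p53, rose by 0.89 ± 0.10 (adjusted p = 6.98e-05), and Ckap2, a spindle protein on the same list, rose by 1.32 ± 0.16 (adjusted p = 0.000228). Ckap2 stood well above background in 2 of the 5 D0 mice and in all 4 D1 mice. It thus met the rule for testing, signal in at least 4 mice of 1 dose group, through D1 and not through D0. Ephx1, the microsomal epoxide hydrolase that converts epoxides to dihydrodiols, rose by 0.77 ± 0.11 from D0 values of 1.09 to 1.67 to D1 values of 2.12 to 2.37. The other members of the list that rose were Ces2e, described below, Aen (0.76), Ddit4l (0.69) and Plk2 (0.67).

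Other targets of p53 did not pass the test. Mdm2, the ubiquitin ligase that degrades p53, had a difference of 0.29 ± 0.10 (adjusted p = 0.11 in limma), with D0 values from -0.12 to 0.17 and D1 values from 0.15 to 0.54, all 4 of which lay above the D0 mean. Among genes of p53-dependent apoptosis, Bax had a difference of 0.54 ± 0.24 (adjusted p = 0.222), Bbc3 of 0.12, Fas of -0.06 and Pmaip1 of 0.42. Trp53 itself had a difference of -0.24 ± 0.13 (adjusted p = 0.321). None of the 31 tested genes on a wider list of apoptosis regulators was called, and their median was 0.13.

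Of the AHR pathway, 2 of 15 tested genes rose and none fell, against 0.875% higher among all genes with a symbol, and the median over the list was 0.10 beside 0.03 for all genes. Cyp1b1, a P450 that activates polycyclic aromatic hydrocarbons, read -2.35, -2.13, -2.01, -1.65 and -2.10 in D0 and -0.69, -0.49, 0.00 and -0.36 in D1. The groups did not overlap, and the difference was 1.66 ± 0.23 (3.16-fold, limma adjusted p = 0.000726). Cyp1b1 was well above background in all 9 mice. Ahrr, the repressor that competes with AHR for ARNT, read -0.50, -0.55, -0.77, -0.58 and -0.66 in D0 and 0.90, 0.61, 1.36 and 0.70 in D1. Its difference was 1.5 ± 0.15 (adjusted p = 1.99e-05), but its probe was well above background in 1 of 5 D0 mice and in 4 of 4 D1 mice. Ahrr thus met the rule for testing through D1 and not through D0, and its D0 level is mostly background. Where signal above background was required in every D0 and D1 mouse, 1 gene of the list was called.

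Cyp1a1, the P450 most used as a marker of AHR activity, was not called. Its ratios were 0.91, 0.99, 0.66, 0.89 and 0.69 in D0, but 2.48, 1.54, 4.01 and 0.42 in D1. Of the D1 mice, 3 lay above all controls and D1 mouse 25 lay below all of them, and the difference of 1.29 ± 0.61 had an adjusted p of 0.247 in limma. Within the slides it was 1.06 on slide 1, 3.23 on slide 2 and -0.26 on slide 3, which held D1 mouse 25. In that same mouse Cyp1b1 and Ahrr stood above every D0 mouse. Other members of the pathway had small differences: Tiparp 0.10 ± 0.09, Nqo1 0.19 ± 0.15, Ahr -0.06, Arnt -0.08 and Aldh3a1 0.08, none of which passed the test. The GCGTG letters lie in the promoter runs of both genes that rose, once in Cyp1b1 and 3 times in Ahrr, and at least once in 6 of 9 promoters of tested members of the list (66.7%), in 50% of the promoters of all genes called higher and in 30.9% of all promoters.

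Enzymes that conjugate or hydrolyse foreign compounds gave 4 increases and no decrease among 38 tested genes, against 0.875% higher among all genes with a symbol, with a list median of 0.08 beside 0.03 for all genes. Besides Ephx1, these were 3 members of the carboxylesterase 2 family, which hydrolyse esters of drugs and lipids. Ces2e read 0.30, 0.76, 0.34, 0.75 and 0.54 in D0 and 2.63, 2.11, 3.31 and 2.68 in D1, so that the lowest D1 mouse was above the highest control by more than 1 unit. The difference was 2.14 ± 0.22 (4.42-fold, limma adjusted p = 2.7e-05). Ces2c rose by 1.2 ± 0.13 (adjusted p = 3.02e-05) and Ces2b by 1.07 ± 0.15 (adjusted p = 0.000802). The Ces2 genes are close relatives, and whether their probes read each other's transcripts was not tested. A second Ces2c probe, with a difference of 0.20 ± 0.13 (adjusted p = 0.432), was not called. Of 74 called symbols with several tested probes, 63 had at least 1 probe that was not called and 11 had all called, and none had calls in opposite directions.

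**Figure D2:**
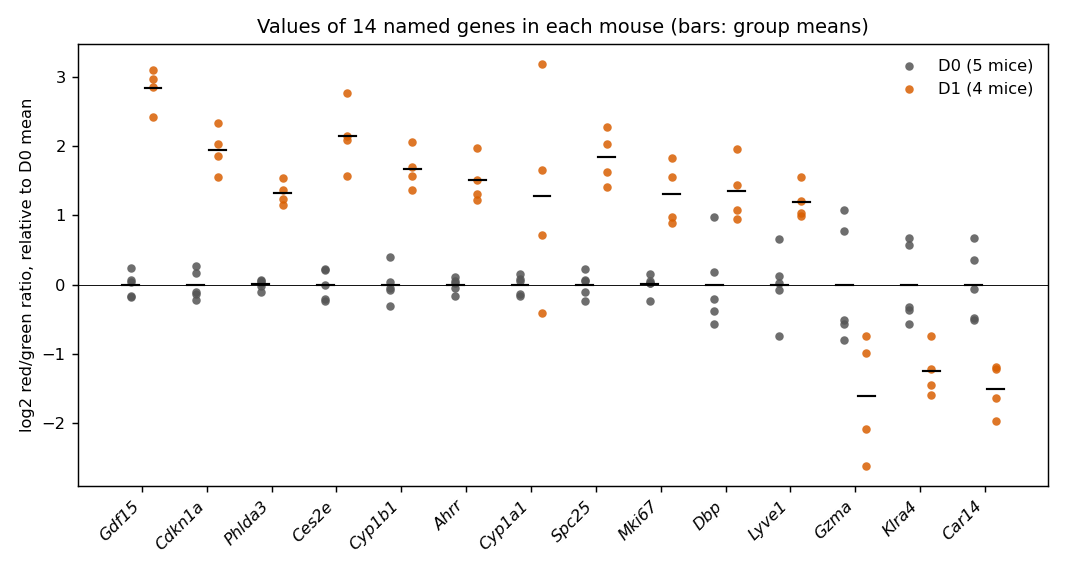
Each point is 1 mouse, given as its log2 ratio minus the D0 mean of that gene, for 5 D0 mice and 4 D1 mice, with bars at group means. D1 values of Gdf15, Cdkn1a, Phlda3, Ces2e, Cyp1b1, Ahrr, Spc25 and Mki67 all lie above the controls, those of Cyp1a1 run from below to far above them, and those of Gzma overlap them at 1 mouse.

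The list with the most changed members was that of mitosis and the G2 phase. Of its 58 tested genes, 34 rose and none fell, against 0.875% higher among all genes with a symbol, and the median difference was 0.68 beside 0.03 for all genes. Differences ran from -0.18 to 1.84 and 55 of 58 were positive. The number called lay between 28 and 41 when 1 mouse was left out, and 27 of the 34 calls held in all 9 such fits. With arrays centred on their median alone, 1 of the 34 was called, although the list median was then 0.93. The list held 67 genes, of which 9, Cdk1 among them, were too dim to test, and 3 of the 34 called genes passed the filter on dim probes through D1 and not through D0. Of these, Ckap2l was not well above background in any D0 mouse, and its level in D1 was at least 1.47-fold higher than the D0 background bound (limma adjusted p = 0.0114). Where signal above background was required in every D0 and D1 mouse, 29 genes of the list were called.

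The increase reached several parts of the mitotic machinery. Spc25, a subunit of the NDC80 complex that binds kinetochores to microtubules, read -4.19, -4.04, -4.36, -4.21 and -4.50 in D0 and -2.63, -2.85, -1.98 and -2.23 in D1. All ratios were far below 0, which is less RNA than in the cell line reference, and the groups were more than 1 unit apart. The difference was 1.84 ± 0.17 (3.57-fold, limma adjusted p = 7.55e-06). Mki67, the gene of the proliferation antigen Ki-67, read -3.88, -3.89, -4.14, -3.76 and -3.86 in D0 and -2.93, -3.02, -2.36 and -2.08 in D1, a difference of 1.31 ± 0.19 (2.48-fold, adjusted p = 0.00107). Birc5, survivin of the chromosomal passenger complex, rose by 1.42 ± 0.19 (adjusted p = 0.000547) and Ccna2, cyclin A2, by 1.24 ± 0.18 (adjusted p = 0.00106). Ccnb1, cyclin B1, rose by 0.70 ± 0.13 from D0 values of -4.35 to -4.03 to D1 values of -3.91 to -3.21, and Top2a, the topoisomerase that untangles sister chromatids, by 0.77 ± 0.14. Pimreg and Sgo1, 2 regulators of mitosis that are not on the list, rose by 1.26 ± 0.16 and 1.15 ± 0.15. The mean over the 58 genes was between -0.08 and 0.07 in D0 mice and was 0.60, 0.37, 0.76 and 0.87 in D1 mice 21, 22, 24 and 25.

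Of 43 tested genes of DNA replication and the S phase, 5 rose and none fell, against 0.875% higher among all genes with a symbol, with a median of 0.36 beside 0.03, and the difference from the mitosis list was not tested. Rrm2, a subunit of the ribonucleotide reductase that makes deoxynucleotides, read from -4.37 to -4.01 in D0 and -3.18, -3.48, -2.51 and -2.60 in D1, a difference of 1.27 ± 0.21 (limma adjusted p = 0.00231). Uhrf1, which recruits maintenance DNA methylation, rose by 0.90 ± 0.15, E2f7, a repressor of E2F targets, by 0.80 ± 0.11, the histone chaperone Asf1b by 0.79 ± 0.13 and Dtl by 0.75 ± 0.14. Dtl was well above background in 3 of the 5 D0 mice and met the rule for testing through D1 and not through D0. Where signal was required in every D0 and D1 mouse, 4 genes of the list were called. Mcm5, a subunit of the replicative helicase, had a difference of 0.30 ± 0.11 (adjusted p = 0.135). The count was 11 without D1 mouse 22, whose mitosis mean was the lowest of its group, and it was 0 with arrays centred on their median alone. Without the fold threshold, 19 of the 43 passed the adjusted p and were higher.

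In the promoters of the 29 called mitosis genes that the RefSeq table holds, CCAAT occurred in 20 (69.0%) and more than once in 15 (51.7%), and TTTGAA in 10 (34.5%). Over all 27025 genes with a promoter these shares were 37.5%, 11.5% and 18.3%, and over the 50 tested mitosis genes with a promoter they were 72.0%, 48.0% and 32.0%. The letters were thus about as frequent in the called genes as in the tested list from which they came. The run of Mki67 holds CCAAT 3 times and TTTGAA 2 times, and that of Spc25 holds CCAAT 2 times. Single p53 half-sites are marked in the runs of Ahrr and Spc25.

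**Figure D3:**
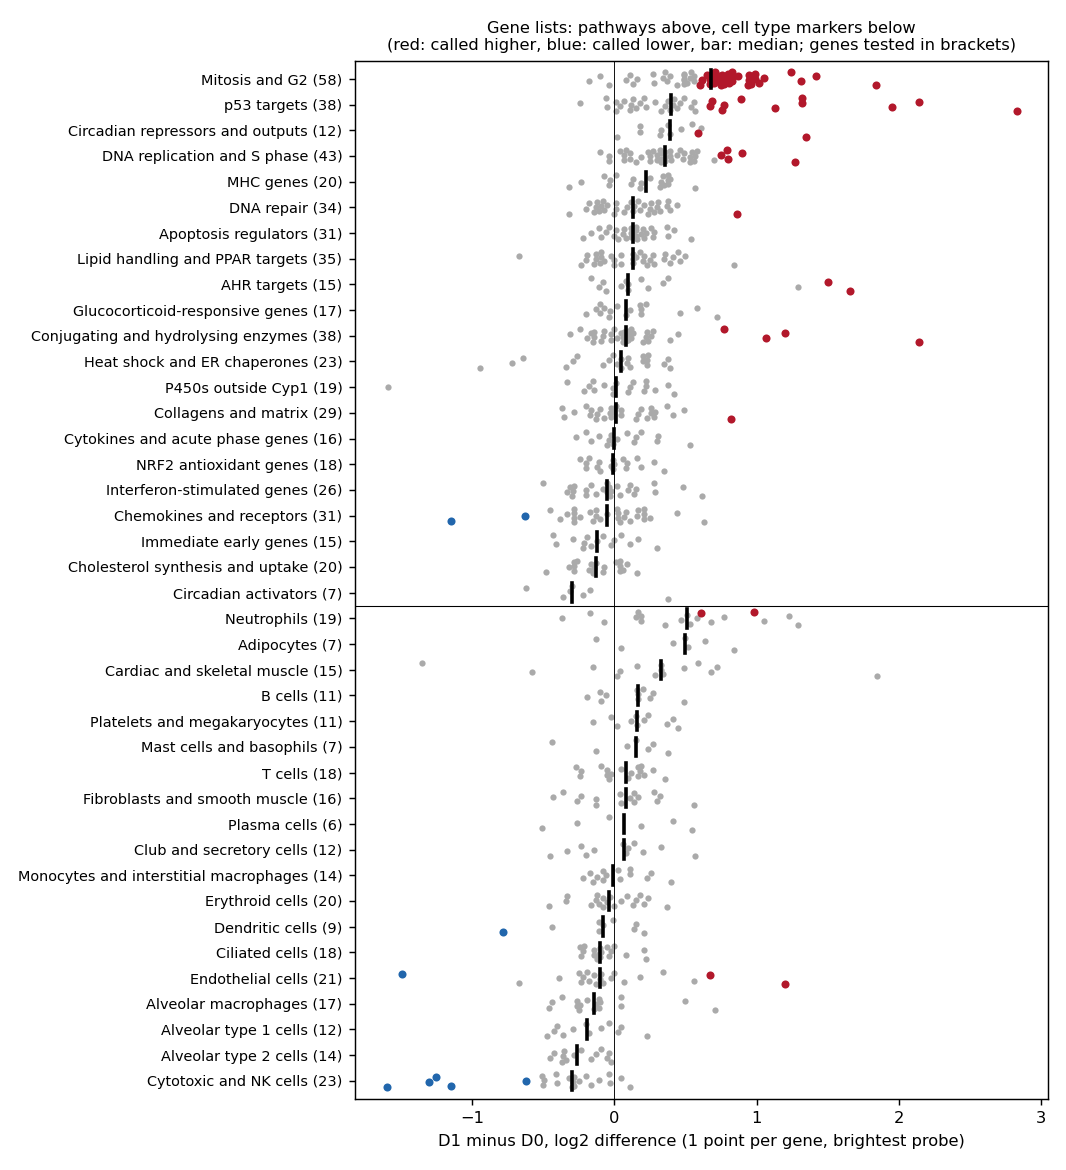
Each point is 1 gene by its brightest probe, the x axis is the D1 minus D0 difference in log2 ratio, red and blue mark called increases and decreases, and black bars are list medians. Mitosis and G2 has the highest median (0.68) among the pathways, and the cytotoxic and NK cell markers have the most called decreases (5).

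Direct comparison with the higher doses placed D1 on the dose range. In limma, D2 against D1 gave no call (0 of 30999, 0%), although 3046 probes had an unadjusted p under 0.05 and 1 was called without D0 mouse 2, and D3 against D1 gave 45 calls (0.145%), 34 of them higher in D3. Of the 184 probes that rose in D1, 16 were higher still in D3 and 3 were lower in D3 than in D1. Among the 38 p53 targets, 8 were higher in D3 than in D1 and none was lower. They included Ccng1, by 1.06 (adjusted p = 0.000151), Cdkn1a, by 1.17 (adjusted p = 0.00268), and Phlda3, by 0.86 (adjusted p = 0.000322).

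All 58 mitosis genes, in contrast, had a lower mean ratio in D3 than in D1, with differences from -0.97 to -0.04 and a median of -0.40, but only Cenpa passed the test. The genes were read in the same few mice and are not 58 separate results. List means of single mice overlapped, from 0.37 to 0.87 in D1 and from 0.08 to 0.44 in D3. Cenpa, the histone variant that marks centromeres, rose in D1 by 0.73 ± 0.11 from -3.09 ± 0.05 (SD, n = 5) to -2.36 ± 0.13 (SD, n = 4), and was lower by 0.65 in D3 (limma adjusted p = 0.0246). The 2 further probes that rose in D1 and were lower in D3 were those of Pimreg (difference -1.12, adjusted p = 0.00657) and Sgo1 (-0.81, adjusted p = 0.03). Mean ratios of Mki67 were -3.91 in D0, -2.60 in D1, -2.90 in D2 and -3.56 in D3, and the step from D1 to D3 of -0.97 had an adjusted p of 0.055. Celf5, an RNA-binding protein, rose in D1 by 0.77 ± 0.15 and was 1.45 higher again in D3 (adjusted p = 0.000322). Mmrn2, a matrix protein of endothelium, rose by 1.12 ± 0.18 and was 1.04 higher again in D3. Gpihbp1, which anchors lipoprotein lipase to capillaries, had a difference of -0.67 ± 0.23 in D1 (adjusted p = 0.106). It was called with the slide as a block (-0.62, adjusted p = 0.0125) and with the red channel alone (-0.77, adjusted p = 0.0262). Gpihbp1 was lower in D3 than in D1 by 1.77 (adjusted p = 0.00305). The number of probes called for D3 against D1 was 28 without D1 mouse 21, 27 without D1 mouse 25, 85 with the slide as a block and 0 with arrays centred on their median alone. No fit left out a D3 mouse.

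**Figure D4:**
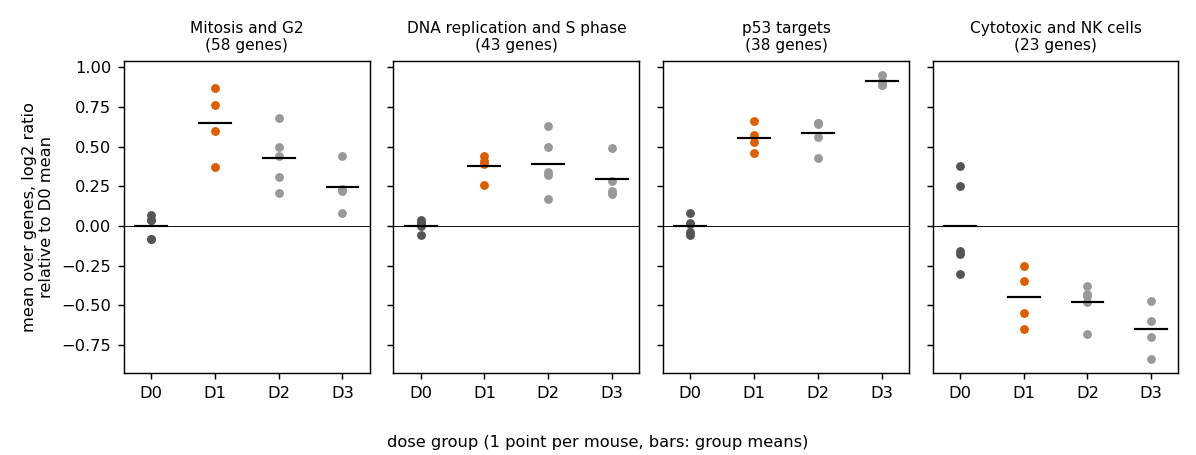
Each point is 1 mouse, the y axis is the mean over the genes of a list of log2 ratios relative to the D0 mean of each gene, and bars are group means. The mitosis mean is highest in D1 (0.65) and lowest among the treated groups in D3 (0.24), while the p53 mean is 0.56 in D1 and 0.91 in D3. Mitosis values of single mice overlap between D1 (0.37 to 0.87), D2 (0.21 to 0.68) and D3 (0.08 to 0.44).

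Genes of natural killer (NK) and cytotoxic cells made up 4 of the 5 largest decreases among called probes with a symbol. Larger differences than some of these were not called, such as that of a P450 outside the Cyp1 family (-1.59) and of a muscle marker (-1.35). Of 23 tested markers, 5 fell and none rose, against 0.319% of all genes with a symbol, and the list median was -0.30. Gzma, a protease of cytotoxic granules, read 5.86, 3.98, 5.55, 4.22 and 4.27 in D0 and 4.04, 2.17, 2.70 and 3.79 in D1, a difference of -1.60 ± 0.43 (3.03-fold lower, limma adjusted p = 0.0365). D0 mice 1 and 3 were the high ones, and D1 mouse 21 was above the lowest control. Klra4 and Klra16, receptors of the Ly49 family, fell by 1.25 ± 0.25 (adjusted p = 0.00654) and 1.30 ± 0.28 (adjusted p = 0.0129), and their groups did not overlap. Ccl5, a chemokine made by these cells, read 0.78, -0.49, -0.11, -0.76 and -0.54 in D0 and -0.82, -1.91, -1.86 and -0.89 in D1 (difference -1.15 ± 0.28, adjusted p = 0.0219). The groups did not overlap but were close, the highest D1 mouse being -0.82 and the lowest D0 mouse -0.76. The fifth was Klra8, of the same family as Klra4, which fell by 0.62 ± 0.15. The Klra genes are close relatives, and whether their probes read each other's transcripts was not tested, so they may not be 3 separate decreases.

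The calls of Klra4 and Klra16 held in all 9 fits without 1 mouse, while those of Gzma, Ccl5 and Klra8 did not. The count of 5 became 2 without D0 mouse 3, without D1 mouse 22, without D1 mouse 24 and when D0 and D1 mice alone were fitted, and it was 0 with arrays centred on their median. The call of Gzma ended when any of D0 mice 1 and 3 and D1 mice 22 and 24 was left out, with limma's adjusted p from 0.0912 to 0.123, and that of Ccl5 when any of D0 mouse 3 and D1 mice 22 and 24 was left out, with adjusted p from 0.0523 to 0.0774. The mean over the 23 markers was 0.38, -0.30, 0.25, -0.18 and -0.16 in D0 mice and -0.25, -0.65, -0.55 and -0.35 in D1 mice, so the groups overlapped between D0 mouse 2 and D1 mouse 21. Such decreases can come from fewer cells or from less RNA per cell, which cannot be told apart in bulk tissue. None of 18 tested T cell markers, 11 B cell markers and 14 markers of monocytes and interstitial macrophages was called, with medians of 0.08, 0.17 and -0.01.

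Of 9 dendritic cell markers, 1 fell and none rose, against 0.319% lower among all genes with a symbol, 3 had a positive difference and the list median was -0.08. Clec9a, the marker that fell, a receptor of cross-presenting dendritic cells, read 1.48, 1.41, 1.58, 2.19 and 2.04 in D0 and 0.92, 0.81, 1.02 and 1.09 in D1, a difference of -0.78 ± 0.18 (limma adjusted p = 0.0199), a call that needed D0 mouse 4 and D1 mice 21 and 22 (0.0537 to 0.0591 with any of them left out). Siglech, a receptor of plasmacytoid dendritic cells, fell by 0.95 ± 0.16 at 1 probe (adjusted p = 0.00259), with no overlap between the groups, but that probe was not called with the scanner software's processed signals (adjusted p = 0.25). Its brighter probe, the one counted in the list, had a difference of -0.44 ± 0.10 (adjusted p = 0.021), short of the fold threshold. Of 19 neutrophil markers 2 rose, against 0.875% of all genes with a symbol, 16 had a positive difference, and the median over the list was 0.51. Mmp8, the neutrophil collagenase, lay between 0.43 and 0.70 in D0 and at 1.21, 1.91, 1.47 and 1.48 in D1, a difference of 0.98 ± 0.16 (adjusted p = 0.00187). Mpo, myeloperoxidase, was well above background in 3 of 5 D0 mice and met the rule for testing through D1 and not through D0. It rose by 0.61 ± 0.17 (adjusted p = 0.044), a call lost in 7 of the 9 fits without 1 mouse, with adjusted p from 0.0633 to 0.137, and where signal was required in every D0 and D1 mouse 1 neutrophil marker was called. The number called was 1 to 4 when 1 mouse was left out, with 4 without D0 mouse 2, and it was 4 with mouse 23 counted in D1 and 1 without mouse 23. The list mean was between -0.16 and 0.25 in D0 mice and between 0.31 and 0.57 in D1 mice. Ccl4, a chemokine of activated leukocytes, fell by 0.63 ± 0.17 (adjusted p = 0.0411), and its call was lost in 8 of the 9 such fits (0.0544 to 0.114).

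Genes of blood and lymph vessels moved in both directions. Of 21 endothelial markers, 2 rose and 1 fell, against 0.875% and 0.319% of all genes with a symbol, and the list median was -0.10. With the slide as a block, 3 rose and 2 fell. Lyve1, the hyaluronan receptor of lymphatic endothelium, read 5.66, 6.40, 5.87, 5.00 and 5.76 in D0 and 6.73, 7.29, 6.95 and 6.77 in D1, a difference of 1.2 ± 0.21 (limma adjusted p = 0.00332) with no overlap. Pecam1, the adhesion molecule CD31, rose by 0.67 ± 0.15 (adjusted p = 0.0136), a call lost without D1 mouse 25 (0.0545). Car14, a membrane carbonic anhydrase, read 2.21, 2.24, 2.66, 3.07 and 3.40 in D0 and 1.09, 0.76, 1.51 and 1.53 in D1, a difference of -1.49 ± 0.24 (2.81-fold lower, adjusted p = 0.00201). With the scanner software's processed signals none of these 3 was called. The differences were then 0.93 for Lyve1 (adjusted p = 0.097), 0.64 for Pecam1 (0.103) and -1.65 for Car14 (0.108). Npr3, the clearance receptor for natriuretic peptides, rose by 1.32 ± 0.25 (adjusted p = 0.005). Serpina3f, a serine protease inhibitor, rose by 1.48 ± 0.33 (adjusted p = 0.0142), where D1 mouse 25 at 3.41 was the highest and the call was lost without it (0.0531).

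Of the circadian clock, output genes and repressors gave 2 increases among 12 tested genes, against 0.875% of all genes with a symbol, with a median of 0.39, and none of 7 activators was called, with a median of -0.30. Dbp, a clock output factor, read 0.43, 0.61, 1.00, 0.24 and 1.78 in D0 and 2.76, 1.89, 2.25 and 1.75 in D1, a difference of 1.35 ± 0.24 (limma adjusted p = 0.00355). D0 mouse 5 overlapped D1 mouse 25, and these are the mice of slide 3, where the difference was -0.03 against 1.80 and 1.63 on the others. A second Dbp probe, with a difference of 1.37, gave 0.08 on slide 3. Nr1d2, a nuclear receptor that represses clock genes, rose by 0.59 ± 0.14 (adjusted p = 0.0228), but dropping D0 mouse 1 or 4, or D1 mouse 21, 22 or 24, ended the call (0.0511 to 0.0708). Per2 had a difference of 0.61 ± 0.19 (adjusted p = 0.0779, 0.0186 without D0 mouse 5 and 0.0488 with mouse 23 counted in D1) and Arntl, the activator BMAL1, of -0.62 ± 0.26 (adjusted p = 0.186). The number of called repressors and outputs was 4 without D0 mouse 5, 1 without any of D0 mice 1 and 4 and D1 mice 21, 22 and 24, and 1 with the deposited table, with normexp and with the red channel alone. On slide 3 Per2 and Arntl both had the opposite sign, -0.26 and 0.56.

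The remaining large decreases fell to genes of mixed function. Septin3, a cytoskeletal GTPase, read from 0.84 to 1.39 in D0 and 0.22, 0.13, -0.25 and 0.22 in D1 (difference -1.03 ± 0.17, limma adjusted p = 0.00205). Trim35 fell by 1.04 ± 0.19, the transporter gene Slc26a10 by 1.02 ± 0.21, Ccnjl by 0.85 ± 0.15 and Zfp628 by 0.79 ± 0.12. Pebp1, an inhibitor of Raf kinase, lay between 1.07 and 1.48 in D0 and between 0.36 and 0.55 in D1, a difference of -0.83 ± 0.12 (adjusted p = 0.00106). With the red channel alone, Pebp1 had a difference of -0.51 and Zfp628 of -0.24 (adjusted p = 0.0761), both short of a call, and with arrays centred on their median -0.37 and -0.32. Syt15, a synaptotagmin, fell by 0.60 ± 0.14 (adjusted p = 0.0148). Syt15 dropped under the fold threshold without D0 mouse 1 or 2 or D1 mouse 22 or 25, with differences from -0.58 to -0.55. Among RNAs that encode no protein, the U2 small nuclear RNA Rnu2-10 fell by 1.08 ± 0.24 (adjusted p = 0.0134, and 0.0529 without D1 mouse 25) and the long RNA Tug1 by 0.83 ± 0.14 (adjusted p = 0.00256).

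Probes without a RefSeq symbol made up 82 of the 144 that were lower and 28 of the 184 that were higher. Among 5901 tested probes for regions of long intergenic RNA, 28 (0.474%) were lower and 15 (0.254%) higher, and among 5875 probes with other identifiers 54 (0.919%) were lower and 13 (0.221%) higher. Probes with a symbol ran the other way, 62 lower (0.323%) and 156 higher (0.812%) of 19217. No test was run between these classes.

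Several lists held no call as fitted, although some of them held 1 or 2 in other fits. One gene of lipid handling was called lower with the slide as a block and with the red channel alone, 1 MHC gene higher when D0 mouse 1 or D1 mouse 22 or 24 was left out, and 1 interferon-stimulated gene higher without D0 mouse 5. With no fold threshold, 1 MHC gene and 1 P450 were higher and 2 genes of cholesterol synthesis lower. These lists were those of NRF2 antioxidant genes (median -0.01 over 18), P450s outside the Cyp1 family (0.01 over 19), interferon-stimulated genes (-0.05 over 26), cytokines and acute phase genes (0.00 over 16), MHC genes (0.22 over 20), genes of lipid handling (0.13 over 35), cholesterol synthesis (-0.13 over 20), heat shock (0.05 over 23), immediate early genes (-0.12 over 15) and glucocorticoid-responsive genes (0.08 over 17). As fitted, none of the markers of alveolar type 1 and type 2 cells, club cells, ciliated cells, fibroblasts, alveolar macrophages, mast cells, plasma cells, erythroid cells, platelets, muscle or adipocytes was called. One plasma cell marker was called higher when D0 mouse 3 or 4 or D1 mouse 21 was left out and 1 lower without D1 mouse 22. With no fold threshold 2 plasma cell markers were higher and 1 marker of mast cells and basophils was lower, and with the processed signals 2 plasma cell markers were higher. Also called were 1 fibroblast or smooth muscle marker without D1 mouse 24 and 1 alveolar macrophage marker without mouse 23. All 14 markers of alveolar type 2 cells had a negative difference, from -0.45 to -0.02, and none passed the test. Markers of cardiac and skeletal muscle varied widely between D1 mice, with list means of 0.88, 1.90, -1.99 and 0.22 against -0.60 to 0.22 in D0, and adipocyte markers stood at 1.79 in D1 mouse 22. The part of such admixed tissue in other results was not tested.

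**Figure D5:**
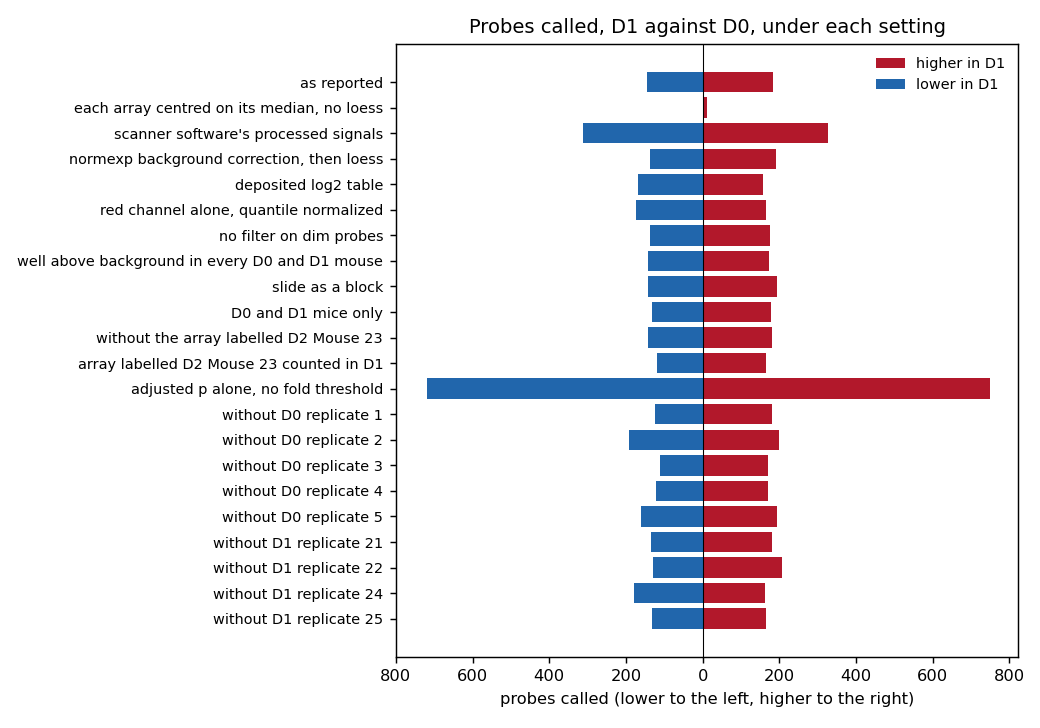
Bars give the number of probes called lower (left) and higher (right) in D1 under each setting. Counts without 1 mouse lie between 282 and 391, and the setting with no loess stands apart at 12.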

How the data were processed

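Lung RNA (200 ng per array) was labelled and hybridised by the authors to Agilent 2-colour mouse arrays, and the deposited scanner files hold linear intensity values per spot. Per the file headers, they were extracted with Feature Extraction 11.0.1.1. The authors also deposited a table of log2 ratios after loess normalisation, used here as an alternative (r of 0.996 to 0.998 with the values used, per array). The authors' own permutation test on shuffled residuals was not run.

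From the median signals, control spots (3671 of 62976 per array) and outlier spots (171 to 323 per array) were left out, ratios of red to green were normalised within each array by loess (span 0.3) with no background subtraction, and spots of a probe were averaged. Of 55681 probes, 24602 were not well above background in red in at least 4 mice of 1 group and 80 had no spot left in some mouse. The remaining 30999 were tested with lmFit and eBayes of limma 3.58.1 in R 4.3.3, over all 4 dose groups with no covariate. Probes were called where the p-value, adjusted after Benjamini and Hochberg, did not exceed 0.05 and the fold change reached 1.5. The median array signal was 116 to 143 in red and 65 to 92 in green, and the number of arrays limits the precision. Both arrays of D3 mouse 35 were averaged. Mouse 23 was kept in D2 as its title says, although its number lies among those of D1 (21 to 25) and the group sizes in the methods match the arrays only if it is counted there, and the fit was repeated leaving it out or moving it to D1. Symbols came from RefSeq identifiers, of which 27235 of 28685 matched, and lists used the brightest tested probe in red of each gene. Samples are separate mice. The steps were tested on simulated data.

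Members and lists were chosen with earlier results of these data known. Named genes were a fixed set of 23, the 15 largest called changes each way, up to 4 called genes each way per list and up to 5 probes each way that also differed between D3 and D1. Genes named beyond these (Aen, Ddit4l, Plk2, Bax, Bbc3, Fas, Pmaip1, Trp53, Ahr, Arnt, Aldh3a1, Dtl, Ckap2l, Klra8, Sftpc and Ager) were chosen after their values were seen. The fixed gene Cdk1 was below the filter. A few results that the rule would name are not reported here. Alternatives changed the background correction (normexp with an offset of 50, on median signals and backgrounds in place of the planned mean signals), normalisation, dim-probe filter, slide block, samples fitted and fold threshold, and left out each D0 and D1 mouse in turn. No D3 mouse was left out, and of the D2 mice only mouse 23 was.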

Additional observations from a re-analysis of the deposited data

Results flagged for a closer look

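In 4 named probes, 1 mouse lay far from the others of its group by Dixon's criterion, which marks about 1 in 20 groups by chance. Tiparp read -0.89 in D1 mouse 21 against -0.67 to -0.65 in the other D1 mice, and was not called. Ccl4 read -3.64 in D1 mouse 24 against -3.25 to -3.20, which is farther from the controls. Ckap2 read -3.42 in D0 mouse 3 against -3.08 to -2.94 in the other D0 mice, and Ccnjl read -1.20 in D0 mouse 2 against -1.42 to -1.36.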

How the results depend on the processing

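Against 328 called probes (184 higher, 144 lower), arrays centred on their median with no loess gave 12 (12 higher, 0 lower), the scanner software's processed signals gave 639 (327 and 312) and the adjusted p with no fold threshold gave 1468 (750 and 718). Leaving out 1 D0 or D1 mouse gave 282 to 391 in all, 163 to 207 higher and 111 to 193 lower. D2 against D1 gave 0 to 1 and D3 against D1 gave 27 to 45 when 1 D0 or D1 mouse was left out, and no fit left out a D3 mouse. D3 against D1 gave 0 with median centring and 85 with the slide as a block. The other settings moved none of these 5 counts by more than 1.5 times. Of 57 called named probes, 47 lost their call under median centring and 10 kept it: both Cdkn1a probes and those of Gdf15, Phlda3, Ccng1, Ces2c, Ces2e, Cyp1b1, Ahrr and Spc25. Under that setting the list median of the mitosis genes was 0.93, that of the p53 targets 0.61 and that of all probes 0.17. The processed signals called 44 mitosis genes and 13 of the S phase, but 8 named probes lost their call: Car14, Lyve1, Pecam1, Siglech, Serpina3f, Mpo and Syt15 by adjusted p (0.0722 to 0.498) and Zfp628 by its size. With mouse 23 counted in D1, Nr1d2 (0.56) and Syt15 (-0.55) dropped under the fold threshold and Per2 was called. The Dbp difference reversed within slide 3 (-0.03), where each group had 1 mouse. The causes were not tested. No paired analysis was possible because no mouse number occurs in both D0 and D1, which concerns numbers only. D0 and D1 mice did share slides, and with the slide as a block 337 probes were called, 303 of them among the 328. Dim probes such as that of Ahrr, near background in most controls, have less certain fold changes.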
